A study of Mus musculus with 40 samples.

Results

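Liver RNA of 9 genes whose level in mouse liver is set by the pattern of growth hormone release was followed in germ-free mice given delta-valerobetaine or vehicle on a Western or a control diet. The 9 genes, Elovl3, Hsd3b5, Moxd1, Slco1a1, Cyp2d9, Cyp7b1, Selenbp2, Cyp2a4 and Cyp17a1, were taken by symbol from a table of 32544 gene rows. All 9 were present, and all 9 passed the filter on low counts that left 12616 genes. Male C57BL/6 mice without gut microbes were used at postnatal day 64. Delta-valerobetaine (VB), a trimethylated compound that gut bacteria make, or vehicle was given for 6 weeks. The 4 groups of 5 mice were Western diet VB, Western diet vehicle, control diet VB and control diet vehicle, and all of them shared strain, sex, age and germ-free state.

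In male rodents the pituitary releases growth hormone in separated pulses, and in females it releases it almost continuously. Each pulse activates the transcription factor STAT5b in hepatocytes, and the 2 patterns hold many liver genes at male or female levels. The enzymes and transporters set in this way act on steroids, bile acids, fatty acids and drugs. Elovl3, Hsd3b5, Moxd1, Slco1a1, Cyp2d9, Cyp7b1 and Selenbp2 are known as genes with higher levels in male mouse liver. Cyp2a4 is known as a gene with higher levels in female mouse liver.

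The main pattern was a split by diet. On the Western diet 6 of the 9 genes were higher in VB mice than in vehicle mice and Cyp2a4 was lower, where 7.19% of all tested genes were called in either direction. On the control diet edgeR called no member in the same comparison. Only 0.151% of all genes were called there, so the lack of calls does not set the 9 genes apart. DESeq2 called Moxd1, Cyp2a4 and Cyp17a1 on the control diet, among 164 genes in all. The VB change itself was higher on the Western diet for 6 members and lower for Cyp2a4, by edgeR's test of the difference between the diets. That test called 7.64% of all genes. With a score of circadian clock genes as a covariate none of the calls on the Western diet remained. That fit called 2 genes of the whole table, against 907 without the score, so the loss is not particular to the members. Levels are given as CPM, reads scaled to a common library size. A call means a p under 0.05 in edgeR's quasi-likelihood test after Benjamini-Hochberg adjustment across all 12616 genes. Errors are SD over 5 mice unless given as SE. Mice of each group are listed in the order of their numbers, 1 to 5, and the labels do not say that the numbers pair them across groups.

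Several facts of the whole series bear on these values. Summed counts ran from 16315342 to 24566686 per mouse. Y-linked transcripts were read in every mouse. Mitochondrial genes took 4.62% of counts in Western diet vehicle mouse 4, against 2.34% to 2.68% in the other mice of its group. Without that mouse the number of members called stayed at 7 with VB on the Western diet, at 5 with the diet in vehicle mice and at 7 in the difference of VB effects. None of 8 hepatocyte markers was at 0 in any group, with summed levels from 40300 to 63090 CPM per mouse. The genes of the circadian clock differed between the groups. The first principal component of 21 clock genes, scaled to an SD of 1 and called the clock score here, averaged 0.227 ± 0.417 in Western diet VB mice, 1.30 ± 0.129 in Western diet vehicle mice, -0.218 ± 0.255 in control diet VB mice and -1.30 ± 0.386 in control diet vehicle mice. The labels give no time of collection. The names of the libraries take another form on each diet, and handling that goes with the names cannot be told apart from diet.

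Promoter sequences were available for 6 of the 9 genes in the RefSeq table for GRCm38.p6, as windows of 250 bases before to 50 bases after the start. The 3 shown are that of Moxd1, the member with the largest VB change on the Western diet, and those of Slco1a1 and Cyp2a4, which changed in opposite directions. All are written 5′ to 3′ along the gene, and capitals mark the motif matches.
Moxd1 (chr10:24223267-24223566, plus strand): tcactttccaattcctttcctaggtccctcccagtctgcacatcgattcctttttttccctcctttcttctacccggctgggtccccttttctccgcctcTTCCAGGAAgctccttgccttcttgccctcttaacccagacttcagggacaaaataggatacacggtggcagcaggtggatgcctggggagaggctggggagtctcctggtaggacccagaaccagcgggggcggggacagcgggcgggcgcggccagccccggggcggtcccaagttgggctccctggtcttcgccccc
Slco1a1 (chr6:141946913-141947212, minus strand): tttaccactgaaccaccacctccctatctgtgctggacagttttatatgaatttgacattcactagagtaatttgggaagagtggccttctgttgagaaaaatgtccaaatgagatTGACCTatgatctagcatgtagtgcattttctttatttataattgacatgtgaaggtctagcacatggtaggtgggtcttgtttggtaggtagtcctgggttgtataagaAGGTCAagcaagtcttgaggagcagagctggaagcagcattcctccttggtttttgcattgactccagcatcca
Cyp2a4 (chr7:26306942-26307241, plus strand): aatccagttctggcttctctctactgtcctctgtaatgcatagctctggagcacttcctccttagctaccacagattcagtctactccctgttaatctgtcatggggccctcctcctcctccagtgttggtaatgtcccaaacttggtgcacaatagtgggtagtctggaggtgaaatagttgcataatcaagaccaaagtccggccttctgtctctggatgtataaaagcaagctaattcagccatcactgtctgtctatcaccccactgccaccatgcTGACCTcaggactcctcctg
The capitals in the Moxd1 window match TTCNNNGAA, the letters that STAT5 proteins bind, at position -150 from the start. Both runs of capitals in the Slco1a1 window match AGGTCA, the core bound by many nuclear receptors, on the minus strand of the window at position -134 and on its plus strand at -24. The capitals in the Cyp2a4 window match the same letters on its minus strand at position 30, past the start. Both strands were searched, and no match overlapped another. TTCNNNGAA occurred in 8.3% of 32851 promoter windows and in 1 of the 6 member windows. AGGTCA occurred in 16.3% of all windows and in 2 of the 6. The E-box CACGTG, which clock factors bind, occurred in 7.15% of all windows, and the D-box TTATGTAA in 0.938%, and neither was found in the 6 member windows. Of these 6, the Hsd3b5 window (chr3:98645485-98645784) lies outside the gene position given below. The Cyp2d9 window (chr15:82452127-82452426) lies inside its gene position, away from the start.

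Elovl3 encodes an elongase of very long chain fatty acids (chr19:46131897-46135694, plus strand, GRCm38). In Western diet VB mice it was at 417, 796, 411, 497 and 965 CPM, against 259, 312, 319, 173 and 223 CPM in Western diet vehicle mice. In control diet VB mice it was at 790, 706, 837, 955 and 1080 CPM, against 1647, 1125, 1206, 1072 and 1376 CPM in control diet vehicle mice. Every Western diet vehicle mouse lay below every other mouse of the study, and the 2 control diet groups met only at their edges. Elovl3 was 2.40-fold higher in VB mice on the Western diet (log2 change 1.26, SE 0.22, adjusted p = 0.00156). The log2 change of -0.56 on the control diet did not pass the test (SE 0.22, adjusted p = 0.357).

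Slco1a1 encodes an organic anion transporter of the hepatocyte's blood-facing membrane that carries bile acids and steroid conjugates (chr6:141907282-141946962, minus strand). It was at 289, 358, 301, 280 and 387 CPM in Western diet VB mice, against 198, 192, 215, 153 and 254 CPM in Western diet vehicle mice. In control diet VB mice it was at 369, 360, 343, 345 and 399 CPM, against 325, 325, 297, 320 and 437 CPM in control diet vehicle mice. The Western diet vehicle mice again lay below all others, and the other 3 groups overlapped. Slco1a1 was 1.60-fold higher in VB mice on the Western diet (log2 change 0.67, SE 0.12, adjusted p = 0.0019). Its log2 change was 0.09 on the control diet (SE 0.12, adjusted p = 0.83).

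**Figure D1:**
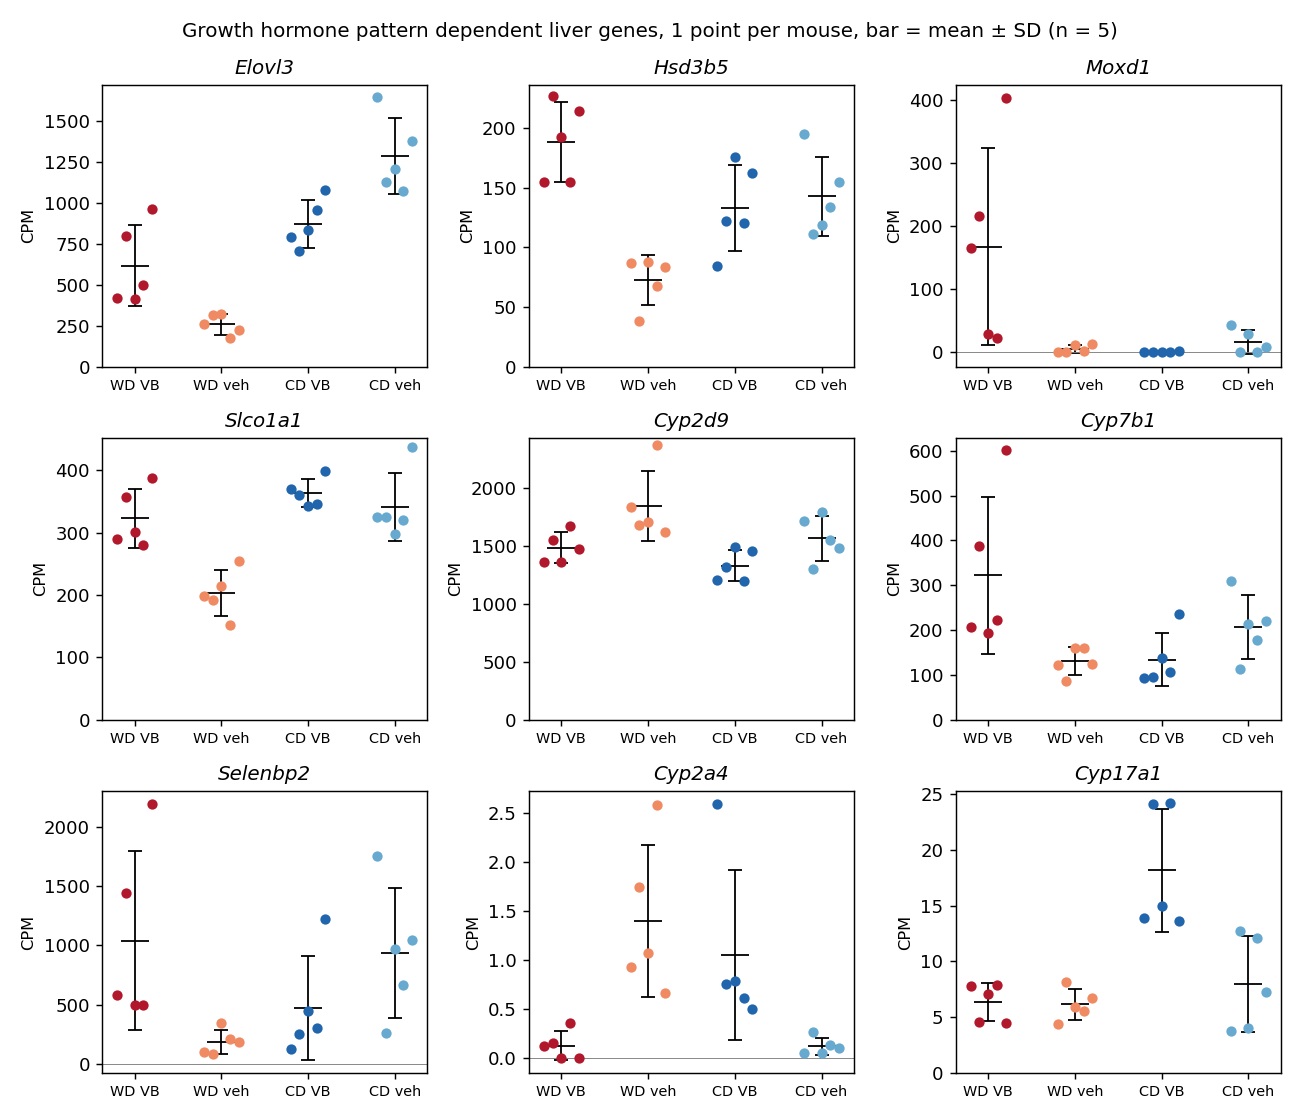
CPM of each of the 9 genes in every mouse, with 1 point per mouse and bars for the mean ± SD of 5 mice; WD is Western diet, CD is control diet and veh is vehicle. Elovl3 and Slco1a1 are lower in every Western diet vehicle mouse than in all other mice, and Moxd1 lies between 23.3 and 403 CPM in Western diet VB mice, above all Western diet vehicle mice.

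Hsd3b5 encodes a male-specific liver member of the hydroxysteroid dehydrogenase family that reduces steroids (chr3:98618634-98630252, minus strand). Western diet VB mice had 155, 227, 192, 154 and 214 CPM, against 86.9, 37.9, 87.5, 67.2 and 83.3 CPM in Western diet vehicle mice. Control diet VB mice had 84.5, 122, 175, 121 and 162 CPM, against 195, 111, 119, 134 and 154 CPM in control diet vehicle mice. The Western diet groups were fully apart, and the control diet groups were mixed. Hsd3b5 was 2.60-fold higher in VB mice on the Western diet (log2 change 1.38, SE 0.22, adjusted p = 0.00088), and its log2 change on the control diet was -0.10 (SE 0.22, adjusted p = 0.905).

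Cyp7b1 encodes an oxysterol and steroid hydroxylase of the alternative bile acid pathway (chr3:18071950-18243338, minus strand). Western diet VB mice had 208, 387, 193, 222 and 602 CPM, against 122, 86.98, 160, 161 and 124 CPM in Western diet vehicle mice. Control diet VB mice had 93.4, 95.0, 138, 107 and 236 CPM, against 310, 114, 213, 177 and 221 CPM in control diet vehicle mice. Mice 2 and 5 of the Western diet VB group stood above the other 3, which lay close above the vehicle mice. Cyp7b1 was 2.47-fold higher in VB mice on the Western diet (log2 change 1.30, SE 0.35, adjusted p = 0.0278). That call was lost when Western diet VB mouse 2 or 5 or Western diet vehicle mouse 1, 2 or 5 was left out, with adjusted p from 0.0523 to 0.0891. Cyp7b1 had a log2 change of -0.63 with VB on the control diet (SE 0.34, adjusted p = 0.533).

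Cyp17a1 encodes the steroid hydroxylase and lyase needed for androgen synthesis (chr19:46667165-46673172, minus strand). Western diet VB mice had 7.76, 4.56, 7.04, 7.93 and 4.47 CPM, against 4.4, 8.12, 5.95, 5.51 and 6.75 CPM in Western diet vehicle mice. Control diet VB mice had 13.9, 24.1, 14.9, 24.2 and 13.6 CPM, against 3.77, 12.8, 4.03, 12.1 and 7.28 CPM in control diet vehicle mice. The Western diet groups were mixed, while each control diet VB mouse lay above every mouse of the other groups. The log2 change with VB was 0.04 on the Western diet (SE 0.31, adjusted p = 0.962) and 1.18 on the control diet (SE 0.30, adjusted p = 0.106), and neither passed the test. The change on the control diet passed with DESeq2 (adjusted p = 0.0118). It also passed with the mouse number as a block in edgeR (adjusted p = 0.0444), though the labels do not say that the numbers pair mice.

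Cyp2d9 encodes a testosterone hydroxylase of male mouse liver (chr15:82433437-82456845, plus strand). It ran from 1361 to 1674 CPM with a median of 1475 in Western diet VB mice, against 1623 to 2373 with a median of 1711 in Western diet vehicle mice. It ran from 1194 to 1489 CPM with a median of 1315 in control diet VB mice, against 1299 to 1792 with a median of 1551 in control diet vehicle mice. The groups overlapped on both diets. The log2 change with VB was -0.31 on the Western diet (SE 0.11, adjusted p = 0.0934) and -0.24 on the control diet (SE 0.11, adjusted p = 0.448).

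Selenbp2 encodes a cytosolic selenium-binding protein (chr3:94693556-94704413, plus strand). Western diet VB mice had 581, 1442, 496, 497 and 2193 CPM, against 104, 83.5, 343, 214 and 181 CPM in Western diet vehicle mice. Control diet VB mice had 127, 249, 446, 305 and 1227 CPM, against 1753, 265, 973, 664 and 1045 CPM in control diet vehicle mice. As for Cyp7b1, mice 2 and 5 of the Western diet VB group were the highest of their group. Selenbp2 was 5.63-fold higher in VB mice on the Western diet (log2 change 2.49, SE 0.66, adjusted p = 0.0289). Leaving out any of the 5 mice named for Cyp7b1 also ended this call, with adjusted p from 0.0576 to 0.0872. Selenbp2 had a log2 change of -0.998 with VB on the control diet (SE 0.63, adjusted p = 0.601), and -1.74 without control diet VB mouse 5.

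Moxd1 encodes a copper monooxygenase related to dopamine beta-hydroxylase (chr10:24223517-24302790, plus strand). Western diet VB mice had 166, 216, 29.2, 23.3 and 403 CPM, against 0.132, 0.747, 12.3, 2.29 and 13.1 CPM in Western diet vehicle mice. Control diet VB mice had 0, 0.601, 0.0785, 0.141 and 2.01 CPM, against 43.5, 1.05, 29.3, 1.13 and 8.28 CPM in control diet vehicle mice. These were 453 to 8384 reads per mouse in Western diet VB mice, 3 to 238 in Western diet vehicle mice, 0 to 44 in control diet VB mice and 20 to 843 in control diet vehicle mice. Moxd1 varied widely within groups, and its groups were apart on the Western diet and overlapped on the control diet. It was 29.7-fold higher in VB mice on the Western diet (log2 change 4.89, SE 1.19, adjusted p = 0.0178), a value that became 4.26 on the log2 scale without Western diet VB mouse 5 (adjusted p = 0.0462) and 5.49 without Western diet vehicle mouse 5 (adjusted p = 0.0284). With VB on the control diet the log2 change was -4.89 (SE 1.44, adjusted p = 0.196), a large value whose groups overlapped. It was -6.25 without control diet VB mouse 5 and -4.14 without control diet vehicle mouse 1, and DESeq2 called it (adjusted p = 0.012).

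Cyp2a4 encodes a testosterone hydroxylase of female mouse liver (chr7:26307169-26315088, plus strand). It was scarce in all mice. Western diet VB mice had 0.124, 0.159, 0, 0.360 and 0 CPM, against 0.924, 1.74, 1.07, 2.58 and 0.659 CPM in Western diet vehicle mice. Control diet VB mice had 2.59, 0.761, 0.785, 0.612 and 0.503 CPM, against 0.0517, 0.263, 0.0537, 0.136 and 0.106 CPM in control diet vehicle mice. The read counts behind these values were 0 to 7 in Western diet VB mice, 12 to 36 in Western diet vehicle mice, 11 to 58 in control diet VB mice and 1 to 5 in control diet vehicle mice. The groups were apart on both diets, in opposite directions. Cyp2a4 was 10.7-fold lower in VB mice on the Western diet (log2 change -3.42, SE 0.68, adjusted p = 0.00304), and -4.31 on the log2 scale without Western diet VB mouse 4 (adjusted p = 0.00145). The log2 change of 3.04 on the control diet did not pass the test (SE 0.68, adjusted p = 0.0623). It passed with DESeq2 (adjusted p = 0.00245) and in edgeR's fit of only both groups (0.0367). It also passed with the mouse number as a block in edgeR (0.0342), though the labels do not say that the numbers pair mice. The log2 change fell to 2.39 without control diet VB mouse 1.

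Some of these counts could hold reads of related genes, since how shared reads were assigned is not given in the sources used here. Of the stretches of 50 bases in its transcript, Selenbp2 shared 52.0% exactly with other genes, all of them with Selenbp1. Cyp2a4 shared 38.0% (36.1% with Cyp2a5), Cyp2d9 29.0% (10.7% with Cyp2d12) and Hsd3b5 21.2% (18.2% with Gm10681). Elovl3, Moxd1, Cyp7b1 and Cyp17a1 shared none with another gene, and Slco1a1 shared 2.3%. Selenbp1 averaged 313 ± 39.9 CPM in Western diet VB mice, against 325 ± 23.4 CPM in Western diet vehicle mice, and its VB change did not pass the test (log2 change -0.05, SE 0.09, edgeR adjusted p = 0.821). Cyp2a5 averaged 423 ± 121 CPM in Western diet VB mice, against 834 ± 153 CPM in Western diet vehicle mice and fell with VB there (log2 change -0.98, SE 0.19, adjusted p = 0.00264). The reads of Cyp2a4 were at the median 0.0251% of those of Cyp2a5 in Western diet VB mice, 0.133% in Western diet vehicle mice, 0.226% in control diet VB mice and 0.026% in control diet vehicle mice. Cyp2a4 is therefore an uncertain member, and whether reads of Cyp2a5 were counted in it was not tested. The exons of Cyp2d9 also overlap those of the pseudogene Gm46501 on the same strand over 186 bases, those of Cyp2a4 overlap the antisense gene Gm42375 over 61 bases and those of Elovl3 overlap Pitx3 on the opposite strand over 10 bases.

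Counted over the members, 7 of 9 were called with VB on the Western diet, where 7.19% of all tested genes were called. The 6 that rose stand against 3.33% of all genes called higher, and Cyp2a4, which fell, against 3.86% called lower. The same 7 members had CPM ranges that did not overlap between the groups, as did 5.56% of all genes. In 1 lane file of Western diet VB mouse 1 the treatment tag reads vehicle against its title, and all 7 members were also called without that mouse. The median log2 change over the 9 members was 1.26, against -0.02 over all tested genes. The members were chosen with earlier results of these data known, so these counts beside the shares are a description and no independent test. Zone markers of the liver lobule also moved in this comparison. Of 7 periportal hepatocyte markers 5 were called higher and 1 lower, with summed levels of 6716 to 8303 CPM in Western diet VB mice, against 4801 to 5532 CPM in Western diet vehicle mice. Of 8 pericentral markers 1 was called higher and 1 lower, with sums of 7518 to 9923 CPM in VB mice and 10470 to 12990 CPM in vehicle mice. Of 6 adipocyte markers 2 were tested and 1 was called lower, with sums of 9.63 to 83.7 CPM in Western diet VB mice, against 41.1 to 287 CPM in vehicle mice, and Lep was at 0 in every Western diet vehicle mouse. The part of these shifts in the result was not tested, and in whole liver fewer cells of a type and less RNA per cell cannot be told apart. Of 5 cholangiocyte markers 1 was called higher, with sums of 23.4 to 44.4 CPM in VB mice and 31.5 to 73.0 CPM in vehicle mice, and of 8 hepatocyte markers 1 was called higher and 1 lower. The lists of Kupffer cells, stellate cells, endothelial cells and of lymphocytes and neutrophils held no call by edgeR.

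The clock score moved with the same groups. It ran between -0.246 and 0.721 in Western diet VB mice, against 1.20 to 1.48 in Western diet vehicle mice, without overlap. With the score as a covariate in edgeR's fit no member was called in this comparison, and 2 genes of the whole table were. Without the score 907 were called. The log2 changes of the 6 genes stayed above 0, from 0.06 for Cyp7b1 (adjusted p = 0.991) and 0.28 for Elovl3 (adjusted p = 0.896) to 3.08 for Moxd1 (adjusted p = 0.694), and that of Cyp2a4 was -2.43 (adjusted p = 0.646). Since group and score run together, an effect of VB and a difference in clock phase cannot be told apart on the Western diet.

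**Figure D2:**
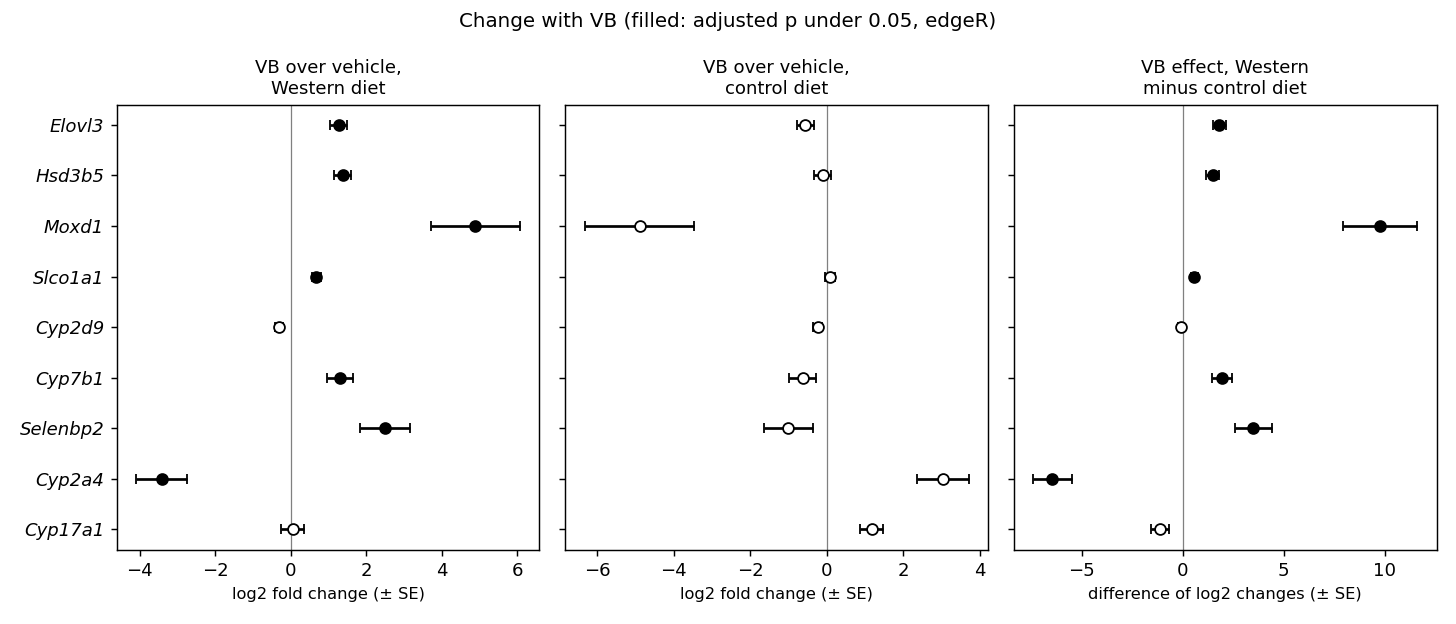
Log2 change with VB over vehicle on the Western diet (left) and on the control diet (middle), and the difference of these changes (right), with bars for ± SE from edgeR's fit of 20 mice and filled points for an adjusted p under 0.05. On the left 7 of 9 points are filled, in the middle none are, and on the right 7 are, with Moxd1 at 9.78 and Cyp2a4 at -6.46.

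With VB on the control diet edgeR called no member, where 0.151% of all genes were called, 0.0555% higher and 0.0951% lower. At an unadjusted p under 0.05 were Elovl3, Moxd1, Cyp2d9, Cyp2a4 and Cyp17a1, and 10.7% of all genes were below that p. With the mouse number as a block edgeR called 2 members, Cyp2a4 (adjusted p = 0.0342) and Cyp17a1 (adjusted p = 0.0444). That fit called 65 genes in all, and the labels do not say that the numbers that form its block pair mice. In the fit of only both groups edgeR called Cyp2a4 (adjusted p = 0.0367), among 66 genes in all. DESeq2 called Moxd1 (log2 change -4.89, adjusted p = 0.012), Cyp2a4 (3.10, adjusted p = 0.00245) and Cyp17a1 (1.18, adjusted p = 0.0118), among 164 genes in all. Cyp2a4 and Cyp17a1 were higher in every VB mouse than in every vehicle mouse, and 3.88% of all genes had ranges that did not overlap in this comparison. Cyp2a4 passed edgeR's test when Western diet VB mouse 4 (adjusted p = 0.0498) or Western diet vehicle mouse 4 (adjusted p = 0.0381) was left out of the common fit, neither of which is in the groups compared. The median log2 change over the members was -0.24, against 0.00 over all genes. The clock score ran from -0.557 to 0.045 in control diet VB mice and from -1.79 to -0.837 in control diet vehicle mice.

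The VB change itself differed between the diets for 7 members, in the interaction term of the same edgeR fit, where 7.64% of all genes were called. For 6 members the change with VB was higher on the Western diet, against 3.63% of all genes, and for Cyp2a4 it was lower, against 4.01%. The differences of log2 changes were 1.82 for Elovl3 (SE 0.31, adjusted p = 0.00122), 1.48 for Hsd3b5 (SE 0.31, adjusted p = 0.00534) and 0.58 for Slco1a1 (SE 0.17, adjusted p = 0.0431). They were 1.93 for Cyp7b1 (SE 0.49, adjusted p = 0.0208), 3.49 for Selenbp2 (SE 0.91, adjusted p = 0.0264), 9.78 for Moxd1 (SE 1.84, adjusted p = 0.00362) and -6.46 for Cyp2a4 (SE 0.96, adjusted p = 0.000383). Those of Cyp17a1 (-1.14, SE 0.43, adjusted p = 0.123) and Cyp2d9 (-0.08, SE 0.16, adjusted p = 0.85) did not pass the test. The median of the 9 differences was 1.48, against -0.02 over all genes. The call of Slco1a1 was lost in 12 of the 20 fits that left out 1 mouse, with adjusted p from 0.0522 to 0.0858, and was lost without Western diet VB mouse 2 or 5, Western diet vehicle mouse 1, 2 or 3, control diet VB mouse 1, 2, 3 or 4, and control diet vehicle mouse 1, 2 or 5. That of Selenbp2 was lost without Western diet VB mouse 5, control diet VB mouse 4 or control diet vehicle mouse 1, with adjusted p from 0.05 to 0.0569. The value for Moxd1 ranged from 9.03 without control diet vehicle mouse 1 to 11.1 without control diet VB mouse 5, and was 9.15 without Western diet VB mouse 5 and 10.4 without Western diet vehicle mouse 5. That of Cyp2a4 became -7.35 without Western diet VB mouse 4 and -5.81 without control diet VB mouse 1, and that of Selenbp2 became 4.23 without control diet VB mouse 5. With the clock score as a covariate none of the 7 was called, and 1 gene of the whole table was, against 964 without the score.

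In vehicle mice Elovl3, Hsd3b5, Slco1a1 and Selenbp2 were lower on the Western diet and Cyp2a4 was higher. This comparison shares the Western diet vehicle mice with the VB comparison above, so opposite changes in both are not independent. Elovl3 was 5.00-fold lower on the Western diet (log2 change -2.32, SE 0.23, adjusted p = 4.86e-07), Hsd3b5 1.97-fold lower (-0.98, SE 0.22, adjusted p = 0.00379) and Slco1a1 1.68-fold lower (-0.75, SE 0.12, adjusted p = 0.000166). Selenbp2 was 5.08-fold lower (log2 change -2.34, SE 0.66, adjusted p = 0.0203) with overlapping groups, and the call was lost without control diet vehicle mouse 1 (adjusted p = 0.058). Cyp2a4 was 10.8-fold higher (log2 change 3.43, SE 0.68, adjusted p = 0.000982). Moxd1, Cyp7b1, Cyp2d9 and Cyp17a1 did not pass the test, with log2 changes of -1.56, -0.66, 0.23 and -0.38. That of Moxd1 was -2.15 without Western diet vehicle mouse 5 and -0.81 without control diet vehicle mouse 1.

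Thus 5 of 9 members were called with the Western diet in vehicle mice, where 16.5% of all genes were, with 4 lower against 7.59% of all genes and 1 higher against 8.92%. The ranges of 4 members did not overlap, as for 12.2% of all genes, and the median log2 change was -0.75 against 0.02. Periportal marker sums ran from 4801 to 5532 CPM in Western diet vehicle mice, against 6402 to 7826 CPM in control diet vehicle mice, and 4 of the 7 markers were called lower and 1 higher. Adipocyte marker sums ran from 41.1 to 287 CPM in Western diet vehicle mice, against 6.80 to 10.2 CPM in control diet vehicle mice, and Lep was at 0 in all mice of both groups. Pericentral marker sums ran between 10470 and 12990 CPM in Western diet vehicle mice, against 6739 to 10750 CPM in control diet vehicle mice, with 2 of 8 markers called higher and 2 lower. Among the other lists 1 of 5 cholangiocyte and 1 of 7 stellate cell markers were called lower, 1 of 6 endothelial and 1 of 3 tested lymphocyte and neutrophil markers higher, and 1 of 8 hepatocyte markers higher and 2 lower. The part of these lists in the result was not tested. The clock scores of these groups were the farthest apart of the study, and no member was called with the score as a covariate. In that fit 28 genes of the whole table were called, against 2083 without the score. Under that covariate Elovl3 had a log2 change of -0.08 and Slco1a1 of -0.21 (adjusted p = 0.996 for both).

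**Figure D3:**
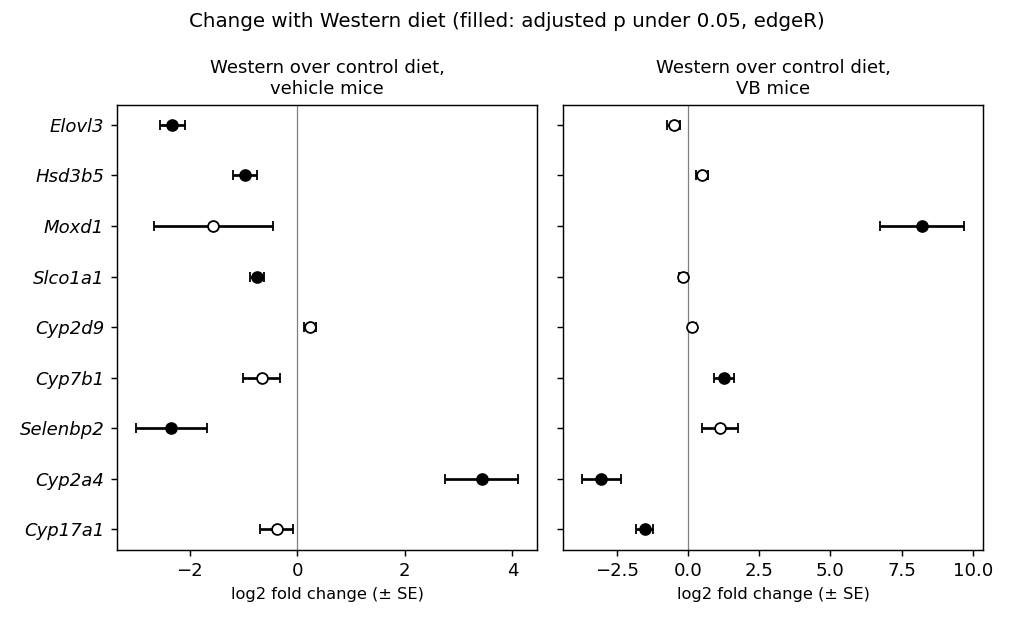
Log2 change with the Western diet over the control diet in vehicle mice (left) and in VB mice (right), with bars for ± SE from edgeR's fit of 20 mice and filled points for an adjusted p under 0.05. Elovl3 sits at -2.32 on the left and -0.50 on the right, and Cyp2a4 at 3.43 on the left and -3.03 on the right.

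In VB mice 4 of 9 members were called with the Western diet, against 6.44% of all genes, with 2 higher against 3.23% and 2 lower against 3.22%. Moxd1 was higher on the Western diet (log2 change 8.22, SE 1.49, adjusted p = 0.00249), and its groups did not overlap. Its value was 7.59 without Western diet VB mouse 5 and 9.59 without control diet VB mouse 5. Cyp7b1 was 2.41-fold higher (log2 change 1.27, SE 0.34, adjusted p = 0.0346) with overlapping groups. That call was lost without Western diet VB mouse 2 or 5 or any of control diet VB mice 1 to 4, with adjusted p from 0.0654 to 0.0899. Cyp17a1 was 2.86-fold lower on the Western diet (log2 change -1.52, SE 0.30, adjusted p = 0.00384). Cyp2a4 was 8.17-fold lower (log2 change -3.03, SE 0.68, adjusted p = 0.00842), with -3.92 without Western diet VB mouse 4 and -2.38 without control diet VB mouse 1. Elovl3 had a log2 change of -0.50 (SE 0.22, adjusted p = 0.183) and passed the test only without Western diet VB mouse 5 (-0.72, adjusted p = 0.0412).

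The ranges of 3 members did not overlap between the diets in VB mice, as for 9.43% of all genes, and the median log2 change was 0.16 against 0.00. This comparison kept its 4 calls with the clock score as a covariate, where Moxd1 had a log2 change of 8.74 (adjusted p = 0.00222), Cyp7b1 of 1.67 (0.00231), Cyp17a1 of -1.84 (0.0024) and Cyp2a4 of -3.45 (0.011), each an edgeR adjusted p. In that fit 615 genes of the whole table were called, against 813 without the score. The clock scores of the 2 VB groups overlapped. Adipocyte marker sums ran between 9.63 and 83.7 CPM in Western diet VB mice, against 5.71 to 9.50 CPM in control diet VB mice, without overlap, with 1 of 2 tested markers called higher and Lep at 0 in every control diet VB mouse. Of 7 stellate cell markers 2 were called lower, with sums of 74.5 to 212 CPM in Western diet VB mice and 192 to 224 CPM in control diet VB mice. Called lower were also 1 of 8 pericentral and 1 of 8 hepatocyte markers. The part of these lists in the result was not tested.

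Placed in order of mean level, Western diet vehicle mice were the lowest group for Elovl3, Hsd3b5, Slco1a1, Cyp7b1 and Selenbp2 and the highest for Cyp2d9 and Cyp2a4. For Cyp7b1 the median was lower in control diet VB mice, at 107 CPM, than in Western diet vehicle mice, at 124 CPM. Elovl3 averaged 617 ± 250 CPM in Western diet VB mice, 257 ± 61.6 in Western diet vehicle mice, 873 ± 147 in control diet VB mice and 1285 ± 233 in control diet vehicle mice, and in the order of levels the Western diet vehicle group was apart from its neighbour while the others overlapped. For Selenbp2 all neighbours in the order overlapped, from 1042 ± 757 CPM in Western diet VB mice to 185 ± 103 CPM in Western diet vehicle mice. Cyp2a4 averaged 0.129 ± 0.148 CPM in Western diet VB mice, 1.40 ± 0.772 in Western diet vehicle mice, 1.05 ± 0.868 in control diet VB mice and 0.122 ± 0.0864 in control diet vehicle mice, so the order split into a higher and a lower pair without overlap between them. Cyp17a1 was highest in control diet VB mice at 18.2 ± 5.52 CPM, apart from the next, control diet vehicle at 7.99 ± 4.30.

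Per kilobase of exon, the members spanned a wide range of levels. In Western diet VB mice Cyp2d9 was highest at 559 ± 49.7 CPM per kilobase, followed by Selenbp2 at 459 ± 333, Elovl3 at 313 ± 127, Cyp7b1 at 149 ± 80.8, Hsd3b5 at 122 ± 21.5, Slco1a1 at 61.2 ± 8.92 and Moxd1 at 52.3 ± 48.9. Cyp17a1 was at 2.29 ± 0.618 and Cyp2a4 at 0.074 ± 0.0852. In Western diet vehicle mice Elovl3 was at 130 ± 31.2 CPM per kilobase and Selenbp2 at 81.5 ± 45.5, and Cyp2d9 was highest at 694 ± 115. In control diet vehicle mice Elovl3 at 651 ± 118 CPM per kilobase and Cyp2d9 at 590 ± 73.2 led the order.

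Some members varied together from mouse to mouse inside the groups, and others did not. After each group's mean was removed, log2 CPM of Cyp7b1 and Selenbp2 had a Pearson r of 0.946 over the 20 mice, the highest of the 36 pairs. Moxd1 and Selenbp2 had an r of 0.789, Hsd3b5 and Selenbp2 of 0.724, and Elovl3 and Slco1a1 of 0.567, while Cyp2d9 had -0.028 with Elovl3 and -0.441 with Slco1a1. Cyp17a1 ran against most members, with -0.697 for Cyp7b1 and -0.584 for Selenbp2. Cyp2a4 had -0.597 with Hsd3b5 and -0.530 with Selenbp2. These are descriptions over mice whose libraries share a kit and a range of depth, and the r with the clock score within groups ran from -0.706 for Elovl3, -0.572 for Cyp7b1 and -0.489 for Selenbp2 to -0.446 for Hsd3b5, -0.314 for Slco1a1, -0.27 for Moxd1, -0.0821 for Cyp2d9, 0.198 for Cyp2a4 and 0.405 for Cyp17a1.

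**Figure D4:**
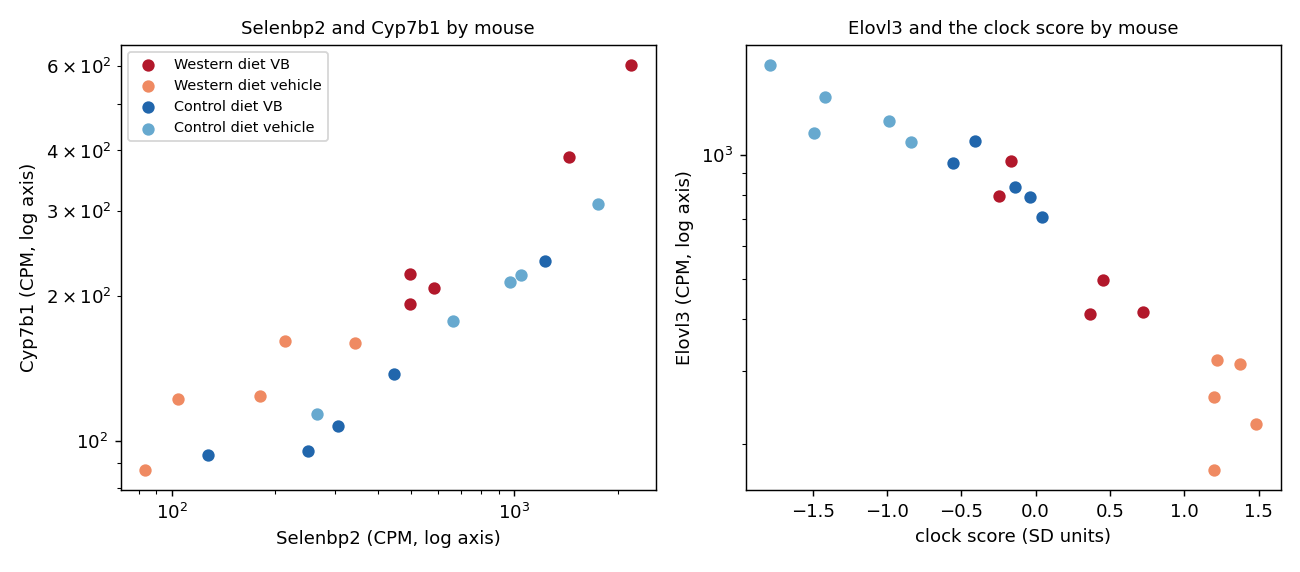
Selenbp2 against Cyp7b1 CPM on log axes (left) and Elovl3 CPM on a log axis against the clock score in SD units (right), with 1 point for each of 20 mice coloured by group. Within the groups the left pair has an r of 0.946 and the right pair an r of -0.706.

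Among 11196 other genes at a mean of at least 1 CPM, those most like each member over the 20 mice were picked by Pearson r of log2 CPM, as a description that includes the differences between groups. For Elovl3 they were Clpx (0.951), Npas2 (0.948) and Arntl (0.942), and the last 2 are in the list behind the clock score. For Slco1a1 they were Abcb11 (0.939), Pfkfb2 (0.91) and Zfp189 (0.905), and for Hsd3b5 they were Ces3b (0.909), Gbf1 (0.868) and Kmt2b (0.838). For Moxd1 they were Mup4 (0.908), Mup15 (0.907) and Mup7 (0.906). For Cyp7b1 they were Serpine2 (0.918), C6 (0.908) and Cyp2c70 (0.856), and for Selenbp2 Serpina1e (0.896), C6 (0.86) and Gbf1 (0.853). Cyp2a4 was nearest to Cpq (0.88), Suclg2 (0.865) and Cyp2b9 (0.862), Cyp2d9 to Fhit (0.858), BC003965 (0.855) and Hprt (0.85), and Cyp17a1 to Cnn3 (0.85), As3mt (0.816) and Fam83g (0.813).

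Among 28 other male-biased liver genes, 18 were called higher and none lower with VB on the Western diet, against 3.33% and 3.86% of all tested genes. This list and those of the next paragraphs were chosen with earlier results of these data known. Their counts beside the shares are a description and no independent test. Their median log2 change was 0.91, against -0.02 over all tested genes, and 2 genes of the whole table were called in this comparison once the clock score was a covariate. The list holds several Mup genes, which encode urinary pheromone carriers, share sequence and are uncertain one by one. It also shares a gene with the list of periportal markers. Serpina1e, a serine protease inhibitor, was 4.77-fold higher (log2 change 2.25, SE 0.39, adjusted p = 0.00201), at 3793 ± 2148 CPM in Western diet VB mice, against 795 ± 114 in Western diet vehicle mice. Nudt7, a peroxisomal coenzyme A diphosphatase, was 1.88-fold higher (log2 change 0.91, SE 0.16, adjusted p = 0.00156), Mup12 3.04-fold higher (1.60, SE 0.29, adjusted p = 0.00201) and Ihh, a hedgehog ligand, 5.36-fold higher (2.42, SE 0.47, adjusted p = 0.00264). Mup genes together took 20.3% ± 4.46 of counts in Western diet VB mice, 11% ± 1.28 in Western diet vehicle mice, 7.57% ± 1.44 in control diet VB mice and 11.1% ± 1.90 in control diet vehicle mice. On the control diet edgeR called none of the 28, where 0.151% of all genes were called, and the median was -0.49 against 0.00. With the Western diet in vehicle mice none was called higher and 6 lower, against 8.92% and 7.59% of all genes, among them Serpina1e (log2 change -2.50, adjusted p = 0.000247) and Cspg5 (-2.04, adjusted p = 0.000583). In VB mice 16 were called higher with the Western diet and none lower, against 3.23% and 3.22% of all genes. In the difference of VB effects 21 were called higher, against 3.63%.

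Of 24 other female-biased liver genes 12 passed the filter on low counts. With VB on the Western diet 2 were called higher and 4 lower, against 3.33% and 3.86% of all tested genes. Abcd2, a peroxisomal fatty acid transporter, was at 1.38 ± 0.375 CPM in Western diet VB mice, against 5.20 ± 2.35 in Western diet vehicle mice (log2 change -1.91, SE 0.30, adjusted p = 0.000583). Cyp2b9, a drug-metabolising P450, was at 0.346 ± 0.484 CPM in Western diet VB mice, against 39.7 ± 22.4 in Western diet vehicle mice (log2 change -6.76, SE 1.25, adjusted p = 0.00309). Cyp2c40 went the other way on the Western diet, higher with VB (log2 change 2.89, SE 0.58, adjusted p = 0.00506). On the control diet edgeR called none of the 12, where 0.151% of all genes were called. With the Western diet in vehicle mice 4 were called higher, against 8.92% of all genes, among them Acot3 (log2 change 3.50, adjusted p = 0.00216) and Sult1e1 (3.17, adjusted p = 0.0042), and 2 were called lower, against 7.59%. In VB mice 5 were called lower, against 3.22% of all genes, and none higher. In the difference of VB effects 1 was higher and 4 were lower, against 3.63% and 4.01%.

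Of 28 genes of growth hormone signalling and its hepatic regulators 27 were tested. With VB on the Western diet 2 were higher and 2 lower, where 3.33% of all tested genes were called higher and 3.86% lower. Igfbp2, an insulin-like growth factor binding protein, was at 412 ± 60.1 CPM in Western diet VB mice, against 262 ± 44.3 in Western diet vehicle mice (log2 change 0.65, SE 0.15, adjusted p = 0.00785). Tox, a nuclear factor, was at 3.83 ± 2.09 CPM in Western diet VB mice, against 9.16 ± 1.85 in Western diet vehicle mice (log2 change -1.24, SE 0.32, adjusted p = 0.0196). Igfbp1, another binding protein of that family, was higher (log2 change 1.84, SE 0.52, adjusted p = 0.0411). The hormone's receptor gene Ghr and its target Igf1, named after their values were seen, did not pass the test, with log2 changes of -0.01 and 0.06 (adjusted p = 0.971 and 0.838). Ghr was at 559 ± 16.3 CPM in Western diet VB mice, against 562 ± 37.1 in Western diet vehicle mice.

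None of these 27 was called by edgeR with VB on the control diet, where 0.151% of all genes were. With the Western diet in vehicle mice 3 were higher and 2 lower, against 8.92% and 7.59% of all genes. Stat5b, which carries the growth hormone signal to DNA, was at 30.4 ± 6.88 CPM in Western diet vehicle mice and 49.4 ± 5.24 in control diet vehicle mice (log2 change -0.70, SE 0.14, adjusted p = 0.00125). In VB mice Cish, a feedback inhibitor induced by the hormone, was at 3.39 ± 1.87 CPM on the Western diet and 29.2 ± 19.4 on the control diet (log2 change -3.07, SE 0.75, adjusted p = 0.0211). Its groups overlapped, at 1.61 to 6.22 CPM on the Western diet and 2.95 to 50.4 CPM on the control diet. The prolactin receptor gene Prlr was lower as well in VB mice on the Western diet (-0.94, SE 0.24, adjusted p = 0.0207). The difference of VB effects was called lower for 3 genes of the list, against 4.01% of all genes, among them Tox (-2.29, adjusted p = 0.00331) and Socs2, a further feedback inhibitor (-3.15, adjusted p = 0.0348). Of 28 genes related to members by sequence 21 were tested. With VB on the Western diet 1 was higher and 2 lower, against 3.33% and 3.86% of all tested genes.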

How the data were processed

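Liver RNA of 20 mice was sequenced as 2 lane files per library. The authors deposited raw counts of reads per gene. Libraries came from a TruSeq kit, per the labels' protocols. The submitters' processing notes name GRCm38. For aligner, counter, annotation and strand, settings were not given in the sources used here. In 1 lane file of Western diet VB mouse 1 the treatment tag says vehicle while title and description say VB, and title was followed. Lanes of a mouse differed by a chi-square per degree of freedom of 1.33 to 1.49, against 17.7 to 146 between mice, and were summed.

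Genes were kept by filterByExpr (minimum count 10, minimum total 15), which left 12616 genes with 99.95% of counts. All 20 mice were fitted together with edgeR 4.0.16 (R 4.3.3, limma 3.58.1), with TMM scaling and the robust quasi-likelihood test, and p-values were adjusted over all tested genes. Each SE was derived from edgeR's test, as the absolute log2 change divided by the square root of its F statistic. Log2 CPM used a prior count of 2. DESeq2 1.42.0 was an alternative, beside other scaling and filters, lane 1 alone, the mouse number as a block, the clock score as a covariate, Mup genes left out of library sizes, fits of only the groups compared and leaving out each mouse. P-values set the differences between groups against the spread between mice, which each fit estimated with information shared across genes. Gene positions and exon lengths come from GENCODE M21.

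The procedure was tested on simulated counts of 12475 genes for VB on the Western diet. It called 27 of the 50 genes given a 1.5-fold change, 41 of 50 at 2-fold, 47 of 50 at 3-fold and 50 of 50 at 4-fold, besides 6 genes left as they were. The changed genes were drawn from those above a minimum mean count, which Cyp2a4 does not reach. Otherwise each gene had the same mean in all groups, with no diet or clock difference simulated. Depth was 16315342 counts per mouse or more, and counting error matters mainly for Cyp2a4 and low Moxd1 values. The members and gene lists were chosen with earlier results of these data known. Named genes are the 9 members, up to 4 called genes of each list with the smallest p, related genes and the 3 genes most like each member. A gene that this rule names is not reported here; it stayed in all fits and counts.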

Additional observations from a re-analysis of the deposited data

Results flagged for a closer look

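Some values stood apart within a group of 5 mice by Dixon's test, among 36 groups examined, of which chance alone marks about 5%. Slco1a1 was highest in control diet vehicle mouse 5 at 437 CPM, Cyp2d9 in Western diet vehicle mouse 4 at 2373 CPM, Selenbp2 in control diet VB mouse 5 at 1227 CPM and Cyp2a4 in control diet VB mouse 1 at 2.59 CPM.

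The effect of VB differed between the diets for 7 members by the interaction test in edgeR. As the VB change on the Western diet minus that on the control diet, on the log2 scale, the value was 1.82 for Elovl3, 1.48 for Hsd3b5, 9.78 for Moxd1, 0.58 for Slco1a1, 1.93 for Cyp7b1, 3.49 for Selenbp2 and -6.46 for Cyp2a4.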

How the results depend on the processing

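With the clock score as a covariate no member was called with VB on the Western diet, with the Western diet in vehicle mice or in the difference of VB effects (0 each, against 7, 5 and 7), and that fit called 2, 28 and 1 genes in all, against 907, 2083 and 964 without the score. On the log2 scale it turned the VB change on the control diet to 0.37 for Elovl3, 0.49 for Hsd3b5, 0.51 for Cyp7b1 and 0.78 for Selenbp2. It turned the Western diet change in vehicle mice to 0.42 for Hsd3b5, 2.44 for Moxd1, 2.13 for Cyp7b1 and 2.17 for Selenbp2. It turned the difference of VB effects to -0.093 for Elovl3, -0.46 for Cyp7b1, -0.35 for Selenbp2 and 0.18 for Cyp17a1. None of these was called, and the cause was not tested. On the control diet DESeq2 called 3 members with VB, the mouse number as a replicate block 2 (Cyp2a4 and Cyp17a1), and the fit of only both groups 1. Genes called there were 164 with DESeq2, 65 with the replicate block, 66 in the fit of only both groups, 30 without Mup genes in library sizes, 29 with the stricter filter and 0 with the clock score, against 19, and 6 to 66 when 1 mouse was left out. With VB on the Western diet the fit of only both groups called 464 genes. Leaving out Western diet vehicle mouse 4 moved genes called to 1397 for the diet in VB mice, against 813, and to 1702 for the difference, and leaving out control diet VB mouse 4 moved the count for the diet in VB mice to 541.

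With 1 mouse left out the members called numbered 5 to 7 with VB on the Western diet, 0 to 1 on the control diet, 4 to 5 for the diet in vehicle mice, 3 to 4 in VB mice and 5 to 7 for the difference. Uncalled values changed sign for Cyp17a1 with VB on the Western diet (-0.0596 to 0.176), Hsd3b5 with VB on the control diet (-0.222 to 0.0352) and Cyp2d9 in the difference (-0.128 to 0.0329). With every gene kept, edgeR's adjusted p was 0.0588 for Cyp7b1 and 0.0526 for Selenbp2 with VB on the Western diet, 0.0757 for Cyp7b1 for the diet in VB mice and 0.054 for Slco1a1 in the difference. For Cyp7b1 in VB mice it was 0.0952 in the fit of only both groups. Same-numbered mice had correlations of -0.0652 to 0.378 in their deviations, which does not decide whether the numbers pair mice. The block changed no other member's call. It called more genes in all comparisons, with 1067 for VB on the Western diet against 907 and 2312 for the diet in vehicle mice against 2083. The counts were 973 for the diet in VB mice against 813, and 1146 for the difference against 964. Of single-gene results under the other alternatives 349 kept direction and side of the threshold, 6 passed it, 19 fell short and 12 turned. Cyp2a4 did not pass the stricter filter, nor lane 1 alone. Depth limits Cyp2a4, with at most 58 reads in a mouse.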
